A study of Mus musculus with 8 samples.

Results

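Natural killer (NK) cells of the mouse skin wound were taken here as the cells with RNA of NK genes and none of the T cell CD3 complex. Barcodes entered the analysis when over 200 genes were detected and mitochondrial genes held under 20% of the UMIs (unique molecular identifiers, each standing for 1 captured RNA molecule). A cell was counted as an NK cell with at least 2 UMIs of Ncr1, Klrb1c and Eomes together, 0 UMIs of Cd3d, Cd3e and Cd3g, and at most 1 UMI of Csf1r, the receptor for colony stimulating factor that marks monocytes and macrophages. Of 35158 kept cells, 254 met this rule, which is 0.722% (exact 95% binomial interval 0.637 to 0.817). Of these, 127 came from diabetic and 127 from control wounds. The cells were thus chosen by the measured UMIs of these 7 genes, whose values are given below as description only.

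NK cells are innate lymphocytes that kill infected or altered cells by releasing perforin and granzymes, and that secrete interferon gamma and chemokines. They carry no rearranged antigen receptor. Their response is set by the balance of activating and inhibitory receptors, many of them lectin-like proteins of the Klr family that read MHC class I on the target. Eomes and T-bet (Tbx21) are the T-box factors of the lineage. Ncr1 encodes the activating receptor NKp46 and Klrb1c encodes NK1.1, the classical surface marker in C57BL/6 mice. A related tissue-resident population, the type 1 innate lymphoid cell (ILC1), shares NKp46 and NK1.1 but commonly lacks Eomes and carries CD49a (Itga1), CXCR6 and the IL-7 receptor. In wounded skin NK cells are a small fraction of a leukocyte infiltrate that is first mainly neutrophils and later mainly macrophages.

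CD45+ leukocytes were sorted from full-thickness back wounds of male C57BL/6J mice on days 1, 3, 5 and 7 after wounding. Diabetic mice had received STZ (streptozotocin, a toxin of pancreatic beta cells) at 120 mg/kg when 4 weeks old, and were used once blood glucose reached 16.5 mmol/L. Control mice were wild type and wounded in the same way. The wounds of 5 mice were pooled into each library, so a library holds no spread between animals.

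There were 8 libraries, 1 for each group and day, with 19236522 to 33842509 UMIs and 3266 to 5436 kept cells each. No difference on a single day therefore has a replicate, and intervals cover counting error only. The library of control wounds on day 5 stood apart, with a median of 8234 UMIs per kept cell against 2575 to 5219 in the other libraries, 169 neutrophil-like cells (S100a8 and S100a9 at 1% or more of a cell's UMIs) against 477 to 2391, and 5 NK cells. The library of diabetic wounds on day 3 held 8 NK cells. These 2 libraries were left out of tests on genes, where at least 10 NK cells were required, which left 6 libraries and 241 NK cells. The deposited barcodes are numbered columns, so cells shared between libraries could not be counted.

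The promoters of 3 genes that lead the list of NK genes below, and of the rule gene Ncr1, are shown first, since motifs of factor families at work in NK cells were searched in them. Each line is 1 promoter of GRCm38 from the RefSeq annotation, 250 bases before to 50 bases after the first start, 5′ to 3′ on the strand of the gene. Capitals mark 3 motifs. The T-box motif was GGTGTGA on the printed strand and its complement on the other strand was read as TCACACC. For ETS factors the letters were GGAAGT on the printed strand and ACTTCC for the other. For RUNX factors they were TGTGGT on the printed strand and ACCACA for the other. Gzma encodes granzyme A (chr13:113100932-113101231, minus strand), Nkg7 a membrane protein of cytotoxic granules (chr7:43436888-43437187, plus strand), Xcl1 the chemokine lymphotactin (chr1:164935473-164935772, minus strand) and Ncr1 the receptor NKp46 (chr7:4337465-4337764, plus strand).
Gzma: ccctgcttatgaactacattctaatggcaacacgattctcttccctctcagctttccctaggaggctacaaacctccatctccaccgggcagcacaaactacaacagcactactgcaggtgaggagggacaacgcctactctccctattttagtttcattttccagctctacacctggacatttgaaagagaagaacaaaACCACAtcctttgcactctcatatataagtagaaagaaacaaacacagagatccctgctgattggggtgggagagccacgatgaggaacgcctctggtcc
Nkg7: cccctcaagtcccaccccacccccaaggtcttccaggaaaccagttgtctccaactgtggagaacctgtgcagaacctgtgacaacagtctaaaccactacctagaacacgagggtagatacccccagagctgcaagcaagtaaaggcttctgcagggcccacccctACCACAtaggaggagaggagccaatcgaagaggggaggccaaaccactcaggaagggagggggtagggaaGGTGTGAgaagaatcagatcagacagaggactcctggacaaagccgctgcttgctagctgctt
Xcl1: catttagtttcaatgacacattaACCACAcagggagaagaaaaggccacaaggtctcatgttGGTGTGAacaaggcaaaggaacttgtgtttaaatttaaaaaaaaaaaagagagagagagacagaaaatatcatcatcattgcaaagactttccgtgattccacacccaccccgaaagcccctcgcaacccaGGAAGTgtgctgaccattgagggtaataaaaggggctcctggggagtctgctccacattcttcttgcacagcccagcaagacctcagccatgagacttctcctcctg
Ncr1: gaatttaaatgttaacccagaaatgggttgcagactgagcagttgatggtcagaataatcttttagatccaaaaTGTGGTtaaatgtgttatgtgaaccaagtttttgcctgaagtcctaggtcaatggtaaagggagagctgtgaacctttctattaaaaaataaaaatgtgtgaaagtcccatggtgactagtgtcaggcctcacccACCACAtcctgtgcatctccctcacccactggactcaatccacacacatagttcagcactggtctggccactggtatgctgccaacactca
Of the 25 leading genes named below, 21 had a promoter in the table. The RUNX motif lay in 8 of these 21 promoters (38.1%) and in 16.9% of 27025 promoters of the same length. The T-box motif lay in 3 (14.3%, those of Myb, Nkg7 and Xcl1) and in 3.96% of all. The ETS motif lay in 5 (23.8%) and in 24.1% of all. The 4 promoters shown all hold a motif, and those of Eomes and Klra8, also leading genes, hold none of the 3. The leading genes include the rule genes Eomes and Klrb1c, which the rule itself selected. Klrb1c is counted among the promoters with the RUNX motif and among those with the ETS motif. Motif matches are a description of the letters in these windows, and no test was made.

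The share of NK cells among kept cells was higher on day 7 than on day 1 in both groups, and the order of the groups changed in between. In diabetic wounds it was 0.294% (14 cells) on day 1, 0.147% (8 cells) on day 3, 1.39% (58 cells) on day 5 and 1.29% (47 cells) on day 7. In control wounds it was 0.703% (31 cells), 1.08% (52 cells), 0.153% (5 cells) and 0.838% (39 cells) on the same days. Diabetic libraries were thus the lower ones on days 1 and 3 and the higher ones on days 5 and 7. The rise from day 1 to day 7 depended on the rule and on the denominator. With T cell receptor genes at 0 the diabetic share was 0.0420% (2 cells) on day 1 and 0.0274% (1 cell) on day 7. The control share was 0.272% (12 cells) and 0.129% (6 cells).

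The difference, diabetic minus control, was -0.41 percentage points on day 1 (95% interval -0.730 to -0.108), and -0.20 (-0.459 to 0.0313) with every cell thinned to 1000 UMIs. On day 3 it was -0.94 points (-1.28 to -0.627), with a share 7.35 times as high in control wounds. By day 5 it was 1.23 points the other way (0.844 to 1.65), and the share was 9.06 times as high in diabetic wounds (ratio interval 3.67 to 28.9). On day 7 it was 0.451 points, with an interval from -0.00673 to 0.937 that held 0. That interval left out 0 on the same side in 4 of 8 alternatives, those with at least 1 UMI, at least 3 UMIs, at least 500 genes and the highest doublet scores left out. In others of the 8 the day 7 difference turned. It was -0.10 points (-0.255 to 0.0480) with T cell receptor genes at 0 and -0.26 (-0.848 to 0.342) with no limit on Csf1r. Over the 4 days the mean difference was 0.0853 points and the exact two-sided sign-flip test of the day pairs gave p = 0.875, where 0.13 is, after rounding, the smallest p that 4 pairs allow.

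Other denominators moved the mean difference over the days, and also the change from day 1 to day 7. Of cells that were not neutrophil-like, NK cells made up 0.565% on day 1 and 1.48% on day 7 in diabetic wounds. In control wounds they made up 1.49% and 0.998%, a change the other way. Out of cells that were not neutrophil-like, the mean difference was 0.0247 points (exact p = 1). Out of NK cells plus Cd3-positive cells (at least 2 UMIs of Cd3d, Cd3e and Cd3g), NK cells made up 14.3%, 7.92%, 14.5% and 11.9% in diabetic wounds on days 1, 3, 5 and 7. The same shares in control wounds were 30.1%, 22.9%, 6.85% and 16.3%. In both groups this share was lower on day 7 than on day 1. By this measure the share was lower in diabetic wounds on 3 of 4 days, by a mean of 6.90 points (exact two-sided p = 0.375), and control day 5 was again the exception.

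**Figure D1:**
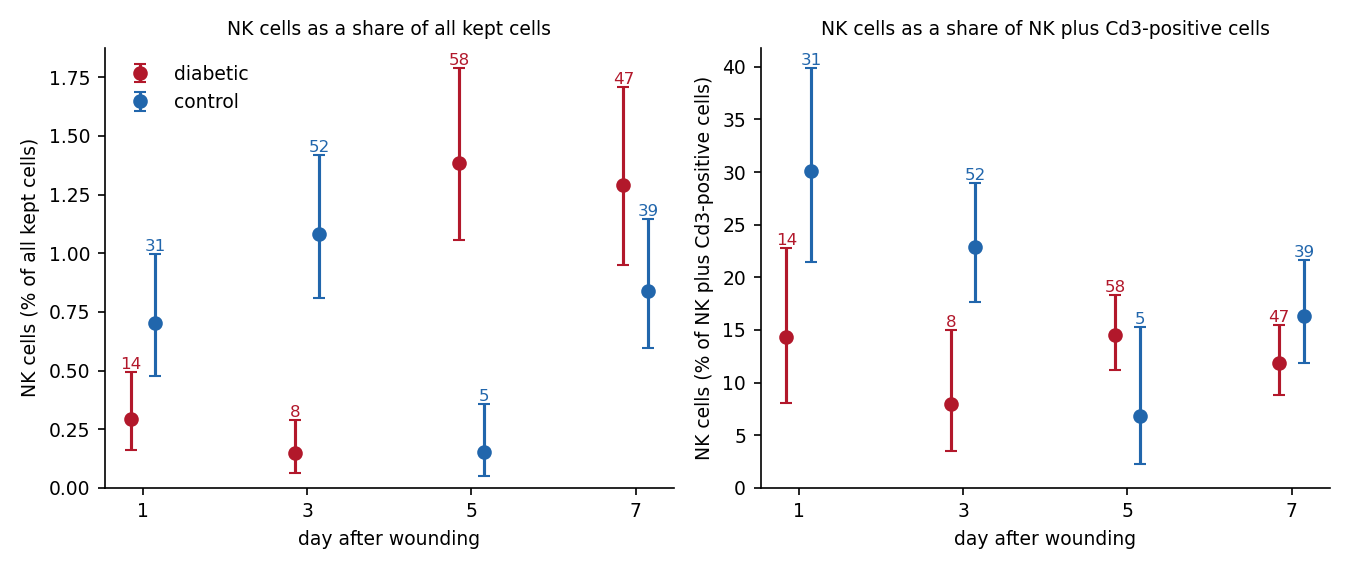
NK cells as a percent of kept cells (left) and of NK plus Cd3-positive cells (right) by day after wounding, for diabetic (red) and control (blue) libraries, with the number of NK cells above each point and exact 95% binomial intervals as bars. The order of the groups crosses between days 3 and 5 in both panels, and in the right panel the control library is the higher one again on day 7, at 16.3% against 11.9%.

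The share on day 7 turned on the limit for Csf1r. That limit left out 95 cells that met the rest of the rule, 51 of them in control and 14 in diabetic wounds on day 7. With no such limit the day 7 shares were 1.67% in diabetic and 1.93% in control wounds, a difference of -0.26 points (-0.848 to 0.342). The 39 left-out cells with 2 Csf1r UMIs had Gzma at 3850 CPM (UMIs of the gene per 1000000 UMIs summed over the cells), close to the 4054 CPM of the counted NK cells, and Lyz2, the macrophage and neutrophil lysozyme, at 1645 against 1072 CPM. The 56 with 3 or more Csf1r UMIs had Gzma at 1753 CPM, Lyz2 at 7325 CPM and a median of 8303 UMIs per cell against 4476. Both RNA of NK cells and RNA of macrophages were thus present in the left-out cells, and how many barcodes held more than 1 cell was not tested.

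At the lower edge of the rule, 56 cells had exactly 2 UMIs of Ncr1, Klrb1c and Eomes, and Gzma stood at 4035 CPM in them against 4058 CPM in the 198 cells with 3 or more. In 118 cells with 1 UMI, just outside the rule, Gzma stood at 702 CPM and Lyz2 at 2165 CPM, and in 17332 cells with 0 UMIs Gzma stood at 17.7 CPM. The requirement for 0 Cd3 UMIs left out 79 cells. In the 45 of them with 1 Cd3 UMI, Klra8 stood at 694 CPM and Trac, the constant segment of the T cell receptor alpha chain, at 144 CPM, against 728 and 70.0 CPM in the counted NK cells. In the 34 with 2 or more, Klra8 stood at 10.8 CPM and Trac at 1526 CPM.

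Among the NK cells, 207 (81.5%) had a UMI of Eomes, 168 (66.1%) of Klrb1c and 75 (29.5%) of Ncr1, and 38 had all 3. Of the 62 cells that entered through Eomes alone, 56 had a UMI of Gzma. The markers given with the cell type that the rule did not use, Gzma and Nkg7, had a UMI in 217 (85.4%) and 240 (94.5%) of the 254 cells, and 3 cells had neither. At least 1 of these markers was thus detected in 251 of 254 cells. Among genes of the T cell receptor, Trac had a UMI in 59 cells, Trdc in 72 and Trbc1 or Trbc2 in 194 (76.4%). Transcripts of the unrearranged beta constant segments are known in NK cells. Trbc1 was above Cd3-positive cells in all 6 libraries with at least 10 NK cells. Its log2 ratios of CPM, with 20 CPM added, were 0.157 to 1.19. Trbc2 (-3.15 to -1.57), Trac (-5.37 to -2.72) and Trdc (-3.44 to -1.85) were below Cd3-positive cells in all 6. Whether the UMIs of these genes came from the cells themselves or from free RNA was not tested.

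Gene levels in NK cells were compared with those of all other kept cells and of 1383 Cd3-positive cells of the same libraries, as log2 ratios of CPM with 20 CPM added. Since the rule splits cells by expression, these ratios are a description with no test. The 25 genes with the largest lowest ratio over 6 libraries were led by Gzma (lowest log2 ratio 4.76), Eomes (4.36), Xcl1 (3.83), Nkg7 (3.72), Car2 (3.52), Klra8 (3.51), Klra4 (3.39), Klre1 (3.39) and Klrb1c (3.35). They went on with AW112010 (an annotated lincRNA), Prf1, Arl4d, Serpinb6b, Il2rb, Gimap4, Klra9, Gimap6, Irf8, Spry2, Txk, Ifng, Klri2, Gzmb, Ccl5 and Myb, for which the lowest ratio was 2.70. Of 4228 genes compared, 193 (4.56%) were at least 2-fold higher than in other cells in all 6 libraries, and 171 (4.04%) at least 2-fold lower. Against Cd3-positive cells 58 (1.37%) were at least 2-fold higher and 25 (0.591%) at least 2-fold lower. These genes all had at least 50 UMIs in NK cells, a filter that takes out genes low in NK cells. Against Cd3-positive cells the order was Klra8 (3.99), Irf8 (3.73), Car2 (3.61), Klrb1c, Klra4, Klra9, Eomes, Arl4d, Klri2 and Prf1 (2.82). Car2 encodes carbonic anhydrase 2, Irf8 an interferon regulatory factor that dendritic cells also use, and Arl4d a small GTPase.

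**Figure D2:**
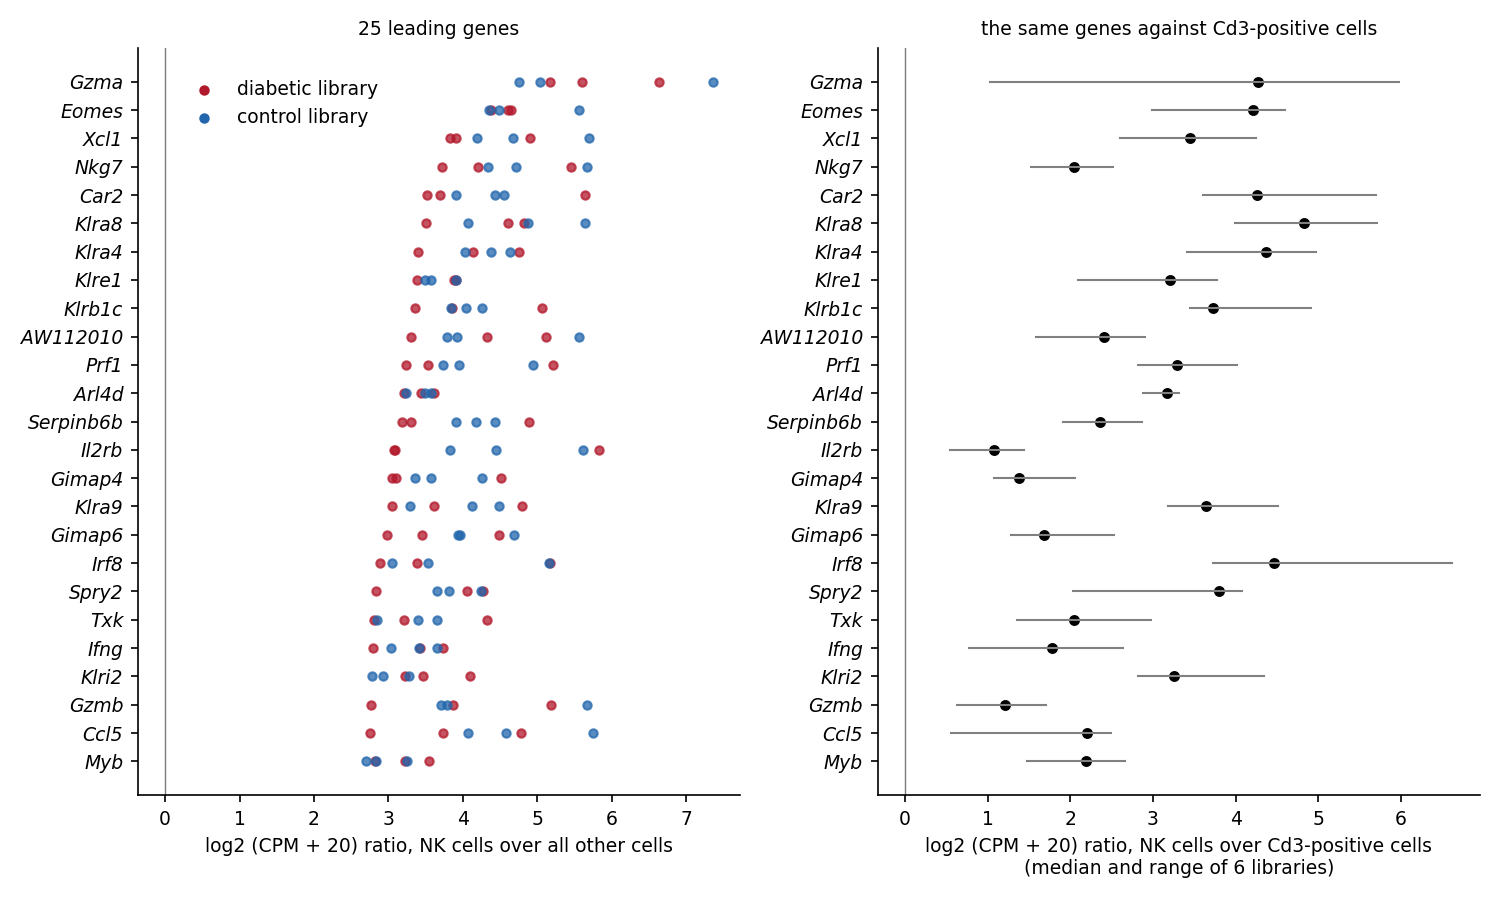
Left, log2 ratio of CPM (20 CPM added) of the 25 leading genes in NK cells over all other cells, 1 point per library (red diabetic, blue control, 6 libraries with at least 10 NK cells). Right, the same genes over Cd3-positive cells as the median (point) and range (line) of the 6 libraries. Each point lies at or above 2.70 on the left. On the right Klra8 and Irf8 have the highest medians, whereas Il2rb (1.08) and Gzmb (1.21) have the lowest.

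Of the 25 leading genes, 6 are Klr genes that lie within chr6:128778485-130193112 of GRCm38 (GENCODE vM21), the NK gene complex. They are Klrb1c, Klre1, Klri2, Klra4, Klra8 and Klra9, all annotated as protein coding. Xcl1 lies on chr1:164931644-164935527, Prf1 on chr10:61297833-61304680, Gzma on chr13:113093825-113100981 and Gzmb on chr14:56258838-56262260, so the other effector genes are spread over the genome.

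Gzma, a tryptase of the granule, had the highest level of the killing list. It stood at 4139, 3010, 3887 and 4184 CPM in diabetic libraries on days 1, 3, 5 and 7. The control libraries stood at 5105, 4397, 6571 and 3152 CPM, so the ranges of the groups overlapped. Gzmb, the granzyme that activates caspases, stood at 2368, 872, 1715 and 1346 CPM in diabetic and at 2450, 1124, 2993 and 1099 CPM in control libraries. It was highest on day 1 among the 6 libraries with 10 or more NK cells, in both groups. Prf1, the pore-forming perforin, stood at 789, 342, 297 and 261 CPM in diabetic and at 652, 337, 651 and 343 CPM in control libraries. Nkg7 ranged from 1001 to 1817 CPM over the 6 libraries. Among the genes of the killing list that were not leaders, the granule proteoglycan gene Srgn had a mean of 3545 CPM and the granzyme inhibitor gene Serpinb9 one of 1115 CPM. Of 24 genes of this list, 20 had a UMI in NK cells, 5 were at least 2-fold above Cd3-positive cells in all 6 libraries and none was that far below. All of Gzma, Gzmb and Prf1 were seen in 115 cells (45.3%).

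Detection was compared at equal depth with Cd3-positive and neutrophil-like cells. Cells were thinned to 1000 UMIs, which left out 2 of 254 NK cells, 21 of 1383 Cd3-positive cells and 592 of 10785 neutrophil-like cells, whose unthinned median depths were 4476, 3961 and 2486 UMIs. Gzma then had a UMI in 75% of NK cells (85.4% unthinned), 7.27% of Cd3-positive and 0.854% of neutrophil-like cells. For Prf1 the shares were 28.2%, 1.69% and 0.0294%, and for Klra8 34.1%, 0.147% and 0.118%. Tyrobp, an adaptor that myeloid cells also use, was in 75.4%, 28.0% and 88.1%. Lyz2, which NK cells should lack, was in 54.4% of NK cells and 63.8% of Cd3-positive cells, and the source of these UMIs was not tested.

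**Figure D3:**
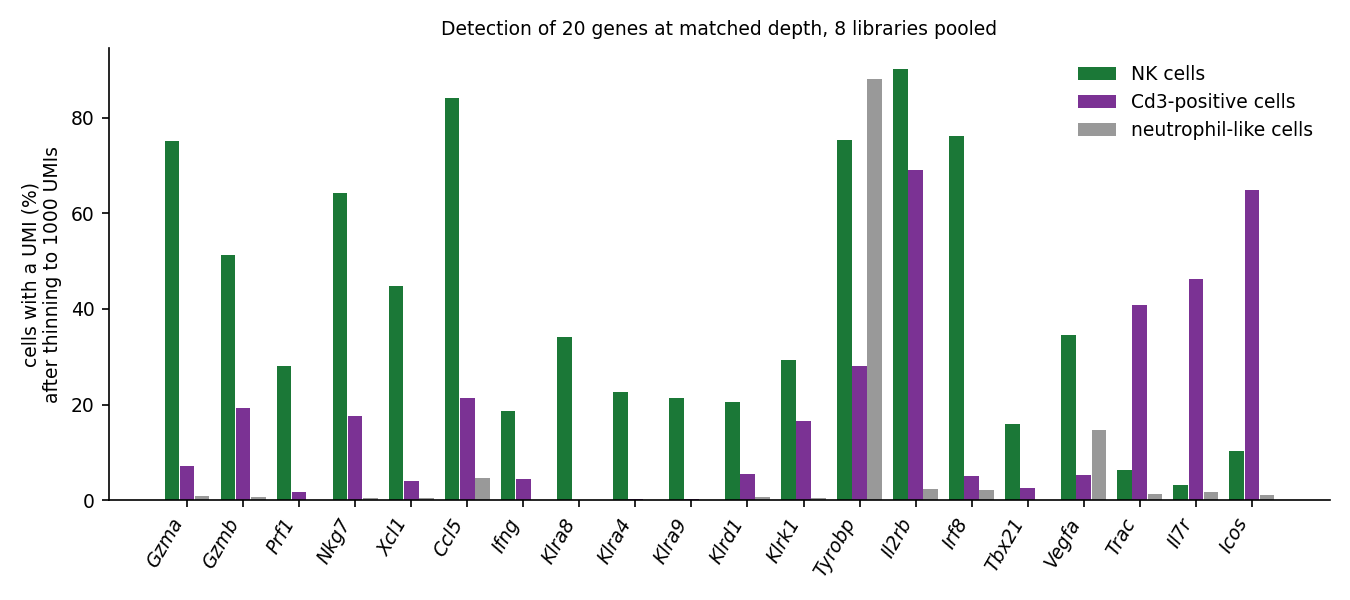
Percent of cells with a UMI of 20 genes after thinning every cell to 1000 UMIs, for NK cells (green), Cd3-positive cells (purple) and neutrophil-like cells (grey), 8 libraries pooled. Granule genes, Xcl1 and the Klra genes are seen mainly in NK cells, Tyrobp in NK and neutrophil-like cells, and Trac, Il7r and Icos mainly in Cd3-positive cells.

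Ccl5 had the highest mean level of the cytokine list, at 6732 CPM over the 6 libraries. This chemokine, which draws T cells and monocytes, stood at 8751, 1727, 4156 and 2723 CPM in diabetic and at 9138, 8929, 16981 and 6693 CPM in control libraries. In each day pair the control library was the higher one, although the values of the groups overlapped across days. It was also among the genes detected in neutrophil-like cells (4.62% after thinning). Xcl1, which draws cross-presenting dendritic cells, stood at 737, 1847, 905 and 905 CPM in diabetic and at 1351, 1206, 390 and 762 CPM in control libraries. Ccl3 and Ccl4 had mean levels of 930 and 1354 CPM, but after thinning they were in 93.3% and 76.7% of neutrophil-like cells against 53.6% of NK cells each. Ifng, the main NK cytokine, stood at 263, 257, 195 and 380 CPM in diabetic and at 214, 240, 325 and 337 CPM in control libraries. Its UMIs were in 113 cells (44.5%). Of 21 genes of the cytokine list, Xcl1 was the 1 gene at least 2-fold above Cd3-positive cells in all 6 libraries, and 3 were that far below.

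Receptor genes of the NK complex were 5 of the 10 leading genes over Cd3-positive cells, of which Klrb1c is a rule gene. The Ly49 family (Klra genes) binds MHC class I, with Klra8 (Ly49H, which recognises a cytomegalovirus protein) and Klra4 (Ly49D) as activating members and Klra7 and Klra9 among the inhibitory ones. Klra8 stood at 474, 291, 703 and 330 CPM in diabetic and at 606, 1341, 1627 and 669 CPM in control libraries. It was in 114 cells (44.9%), Klra4 in 92, Klra9 in 91 and Klra7 in 89. Among 8 Ly49 genes, 55 cells had none, 51 had 1, 62 had 2, 54 had 3, 29 had 4 and 3 had 5. Klra9 had a UMI in 54.4% of cells with Klra8 (44.8 to 63.7) and in 20.7% of cells without it (14.3 to 28.4). For Klra4 these shares were 46.5% and 27.9%. Ly49 genes are near-identical copies, so reads may have been split or shared between them and these pairs are uncertain.

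The other receptors were mixed. Klrk1 (NKG2D, the receptor for stress ligands) had a mean of 425 CPM over the 6 libraries, Klrb1b 703 CPM and Klre1 315 CPM. Among inhibitory receptors Klrc1 (NKG2A) had a mean of 389 CPM and its partner Klrd1 (CD94) one of 283 CPM. Of 24 activating receptors, 6 were at least 2-fold above Cd3-positive cells in all 6 libraries. The 2 below by as much included Icos, a T cell co-stimulator, with log2 ratios from -4.81 to -2.66. Of 22 inhibitory receptors, 3 were above and 2 below, among them Ctla4 from -4.71 to -2.96. Signals of these receptors run through adaptors, of which Fcer1g and Tyrobp were highest at 1912 and 1539 CPM, followed by the phosphatase gene Ptpn22 at 911 CPM and the adaptor gene Sh2d2a at 647 CPM.

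Transcription factor genes were led by Id2, the inhibitor of E proteins that innate lymphocytes need, with a mean of 2420 CPM, and by Irf8 at 2202 CPM. Irf8 stood at 2490, 2120, 2097 and 2063 CPM in diabetic and at 2403, 2067, 1236 and 2093 CPM in control libraries. Apart from control day 5 these levels lay between 2063 and 2490 CPM, and Irf8 was in 76.2% of NK, 5.14% of Cd3-positive and 2.12% of neutrophil-like cells after thinning. Eomes stood at 403, 1112, 700 and 836 CPM in diabetic and at 1006, 536, 716 and 640 CPM in control libraries. Bhlhe40, a factor of cytokine production, and Ets1, an ETS factor, had means of 1074 and 1061 CPM. Tbx21 (T-bet) had a mean of 204 CPM, with log2 ratios over Cd3-positive cells from 1.68 to 2.26. Rora, a factor of type 2 lymphocytes and of many T cells, was the lower one, with log2 ratios from -3.17 to -1.36.

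Receptors for cytokines were led by Il2rb, the shared chain for IL-2 and IL-15, with a mean of 3114 CPM, followed by Ifngr1 at 1604, Stat3 at 1338 and Jak1 at 928 CPM. Il2rb was in 69.1% of Cd3-positive cells after thinning and its log2 ratio over them was 0.547 to 1.44, so it separated NK cells from myeloid cells more than from T cells. Il7r was below Cd3-positive cells by log2 ratios from -3.97 to -1.50. Of the trafficking list, Selplg (890 CPM), Cxcr4 (756 CPM), Itgb1 (677 CPM) and Itgb2 (582 CPM) were highest. The maturation genes Itgam and Cd27 were seen in 70 cells with Itgam alone, 48 with Cd27 alone, 26 with both and 110 with neither. Vegfa, the angiogenic growth factor, stood at 596, 393, 464 and 621 CPM in diabetic and at 848, 352, 130 and 808 CPM in control libraries, 2.24 to 3.63 above Cd3-positive cells in log2 ratio over the 6 libraries. After thinning it was in 34.5% of NK, 5.21% of Cd3-positive and 14.8% of neutrophil-like cells.

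The list of tissue residence and ILC1 was uneven. Its highest members were Rgs2 and Rgs1, regulators of G protein signalling, with means of 2284 and 1703 CPM, the surface protein gene Thy1 with 603 CPM and Cd69 with 225 CPM. All 4 were above other kept cells in each of the 6 libraries. Against Cd3-positive cells Rgs2 lay between -0.35 and 0.61 in log2 ratio and Rgs1 between -0.66 and 0.61. Thy1 (-0.97 to -0.18) and Cd69 (-2.28 to -0.145) were below Cd3-positive cells in all 6 libraries. None of 16 genes was at least 2-fold above Cd3-positive cells in all 6 libraries. Those at least 2-fold below were Itgae (CD103), Cxcr6, Il7r, Ly6a and Tmem176a, of which Itgae and Cxcr6 had under 50 UMIs in NK cells. Itga1 (CD49a) was in 17 of 254 cells (6.69%). The rule lets in cells without Eomes, and in these 47 cells the summed levels of genes that mark ILC1 rest on few UMIs. They were 333 CPM of Il7r against 44.7 CPM in the 207 cells with Eomes, 57.0 against 14.3 CPM of Itga1 and 57.0 against 7.16 CPM of Cxcr6. Rora stood at 437 against 189 CPM and Icos at 238 against 112 CPM. Itga1 and Cxcr6 had 12 UMIs each in the cells without Eomes, and 5 of the 12 of each gene came from 1 cell of the diabetic library of day 1. Gzma stood at 3650 against 4130 CPM over all cells. It was lower without Eomes in 5 of the 6 libraries with at least 10 NK cells, and higher in control day 3 (5504 against 3972 CPM), which gave 408 of the 768 Gzma UMIs. Tbx21 stood at 223 against 197 CPM. The Il7r UMIs came from few cells, since 36 of 70 were in 3 cells of the control library of day 7. The split by Eomes is a split of the rule genes, so it was not tested.

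Genes that most cells express were high in NK cells too. B2m and the classical MHC class I genes H2-D1 and H2-K1 had means of 5183, 5166 and 4527 CPM, and H2-Q6, which has near-identical copies and is uncertain, one of 1394 CPM. Of the stress and immediate early list, Jund (2435 CPM), Hspa8 (1983 CPM), Nfkbia (1864 CPM) and Dusp2 (1805 CPM) were highest. Dusp2, a phosphatase of MAP kinases, stood 0.927 to 2.53 above Cd3-positive cells in log2 ratio. Glycolysis genes were led by Gapdh (869 CPM), Ldha (492 CPM) and Aldoa (468 CPM). The interferon-stimulated genes Irf1, Ifitm3 and Ifi203 had means of 278, 241 and 167 CPM. The cell cycle genes Tubb5, Hmgb2, Pcna and H2afz had means from 281 to 373 CPM.

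Genes that differed between diabetic and control wounds were tested with edgeR on UMIs summed over the NK cells of a library, with day as a block, in the 6 libraries with at least 10 NK cells. The comparison asks whether diabetes changes gene activity in NK cells of the wound. Days 3 and 5 each had 1 library in this fit, so the contrast rests on the pairs of days 1 and 7, with 1 residual degree of freedom. Of 5444 genes, 2 were higher (0.0367%) and 1 lower (0.0184%) in diabetic wounds at an adjusted p (Benjamini-Hochberg) under 0.05, and 156 (2.87%) had an unadjusted p under 0.05.

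The 2 that rose are genes of dividing cells. Mki67, the proliferation antigen Ki-67, stood at 0, 120, 474 and 318 CPM in diabetic and at 0, 139, 65.1 and 29.1 CPM in control libraries on days 1, 3, 5 and 7. Its edgeR log2 fold change was 3.38 (SE 0.744, adjusted p = 0.00991). Pclaf, a PCNA clamp-associated factor, stood at 0, 85.5, 208 and 180 CPM in diabetic and at 0, 63.7, 65.1 and 0 CPM in control libraries (edgeR adjusted p = 0.00821). Both genes were at 0 in both groups on day 1, so these calls rest on day 7. There Mki67 had 83 UMIs against 5 and Pclaf 47 against 0. With the control library set to a floor of 3 counts, the Pclaf level was 10.3-fold higher in the diabetic library. The exact conditional Poisson interval of its ratio, which covers counting error only, began at 8.08.

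The calls for both genes depended on the Csf1r limit. The 51 cells left out of the control library of day 7 had 310 CPM of Mki67 and 126 CPM of Pclaf, above the 29.1 and 0 CPM of the 39 counted cells. Without the limit, in a fit that also took in the diabetic library of day 3, the log2 fold changes were -0.44 for Mki67 and -0.21 for Pclaf. With the left-out cells, Mki67 on day 7 was still higher in the diabetic library, at 333 against 229 CPM, and Pclaf at 142 against 89.2 CPM. On day 1 Mki67 stood at 0 in the diabetic and 89.9 CPM in the control library, whose 13 UMIs came from 3 left-out cells. Pclaf stood at 0 and 69.1 CPM there. On day 3 Mki67 stood at 88.1 and 142 CPM and Pclaf at 52.8 and 64.7 CPM. Mki67, Pclaf and Hspa1b all missed the threshold with DESeq2, with no day block, with day as a number, and when all 8 libraries or cells with 1 UMI of the rule genes were taken in. The fit with 1 UMI also took in the diabetic library of day 3, with 20 NK cells. In Cd3-positive cells the same fit gave Mki67 a log2 fold change of 1.65 (edgeR adjusted p = 0.00270) and Pclaf one of 1.52 (edgeR adjusted p = 0.285).

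Hspa1b, an inducible HSP70 chaperone, was the gene that fell. It stood at 17.5, 205, 321 and 265 CPM in diabetic and at 18.6, 888, 130 and 1611 CPM in control libraries, with an edgeR log2 fold change of -2.50 (SE 0.480, adjusted p = 0.00110). In the day 1 pair the levels were alike, and the difference came from day 7. Hspa1b is also known to respond to tissue digestion. Without the Csf1r limit its log2 fold change was -1.28 with an edgeR adjusted p of 1. In Cd3-positive cells the same fit gave Hspa1b a log2 fold change of -0.979 (edgeR adjusted p = 0.0806). Of the 24 stress and immediate early genes, 23 were tested, and the median log2 fold change was -0.36 against -0.03 for all genes tested. Lists of other cells moved as well. Their medians were -0.543 for 15 macrophage genes (2 positive), -0.421 for 6 neutrophil genes (0 positive) and 0.649 for 7 dendritic genes (7 positive). The part of such RNA in the group comparison was not tested.

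No gene of the lists for killing, cytokines, receptors, adaptors, transcription factors, cytokine signalling, trafficking, maturation, residence, interferon response, glucose use or MHC class I passed this test in either direction. Beyond the genes that passed, the smallest p-values among higher genes were those of Rbbp8 (log2 fold change 1.49), H2afj (1.67) and Trbc2 (1.33), and among lower genes those of Igkc (-5.52), Hsp90ab1 (-1.07), Dnajb1 (-1.74) and Cxcl10 (-2.02). Their edgeR adjusted p-values ran from 0.113 to 0.886. Among cell cycle genes 19 were tested, 2 passed, 16 had a positive log2 fold change, and the median was 0.765. Over all 5444 genes tested, 3 passed and the median was -0.0294. The cell cycle genes that passed, Mki67 and Pclaf, had negative log2 fold changes without the Csf1r limit.

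Over the days from 1 to 7, with group as a term, 39 of 4423 genes rose (0.882%) and 10 fell (0.226%) by the edgeR test. Of the 39, 11 belong to lists of markers of other cells and 2, Hspa1a and Hspa1b, to the list of stress and immediate early genes. The lists of other cells are not complete, so the 11 is a lower count of such markers. Ccl8, Cd36, Ctss and Gpnmb also rose and are in none of them, and the study gives these genes as markers of its macrophage clusters. Hspa1a stood at 0, 120, 123 and 372 CPM in diabetic and at 27.9, 345, 65.1 and 994 CPM in control libraries, a log2 change of 0.651 per day (SE 0.0933, edgeR adjusted p = 3.29e-05). For Hspa1b the change was 0.509 per day (SE 0.113, edgeR adjusted p = 0.0104).

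Among the genes that rose, 6 belong to the macrophage list and 4 to the dendritic list. Apoe, the lipid carrier of macrophages, stood at 17.5, 752, 303 and 1423 CPM in diabetic and at 74.5, 449, 1366 and 2744 CPM in control libraries (0.841 per day in log2, SE 0.0765, edgeR adjusted p = 2.24e-09). The MHC class II gene H2-Aa stood at 158, 616, 790 and 1933 CPM in diabetic and at 130, 700, 520 and 1669 CPM in control libraries (0.547 per day, SE 0.0717, edgeR adjusted p = 1.16e-05). The complement genes C1qa, C1qb and C1qc, Lyz2, Mrc1, H2-Ab1, H2-Eb1 and Cd74 rose as well, by 0.407 to 0.686 per day. The steepest rises were of the matrix genes Sparc (2.48), Col1a1 (2.42), Col1a2 (1.39) and Col3a1 (1.29), with Serpinb1a (1.59), Retnla (1.47), Ccl8 (1.33), Fcgrt (1.19), Cd36 (1.12) and Gdf15 (1.00). Col1a1 had 16 and 32 UMIs in the diabetic and control libraries of day 7. The 13 genes of its list together summed to 0 and 9.32 CPM on day 1, 10.3 CPM in diabetic day 5 and 3.75 CPM in control day 3. Its slope thus starts near 0 and is not a measured fold change over the days.

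Neutrophil genes were among the 10 that fell. Retnlg stood at 263, 222, 28.2 and 26.8 CPM in diabetic and at 540, 44.9, 0 and 17.4 CPM in control libraries (-0.74 per day in log2, SE 0.107, edgeR adjusted p = 3.29e-05). S100a8 and S100a9, subunits of calprotectin, changed by -0.26 and -0.29 per day. The others were Slfn4 (-0.45), Slc11a1 (-0.44), Chd8 (-0.40), Ehbp1l1 (-0.37), Cks2 (-0.30), Plaur (-0.28) and Slpi (-0.28).

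RNA of other cells was present in the same libraries. The summed level of 16 monocyte and macrophage genes in NK cells was 1982, 3796, 2403 and 4897 CPM in diabetic and 1751, 2918, 7157 and 8838 CPM in control libraries. In Cd3-positive cells, which should also lack these genes, it was 4987, 4672, 2281 and 5212 CPM in diabetic and 2711, 3303, 6365 and 9308 CPM in control libraries. In diabetic wounds the sum thus differed between the days 1 and 7 in NK cells but little in Cd3-positive cells, while in control wounds it was higher on day 7 in both. The 12 dendritic genes summed to 503 to 7075 CPM in NK cells, nearly all of it from class II genes and Cd74, while Siglech, a plasmacytoid marker, was at 0 in every library and Xcr1 and Cd209a reached at most 20.5 and 17.1 CPM. The 12 neutrophil genes were highest on day 1, at 2946 CPM in diabetic and 3689 CPM in control libraries. Of the 39 genes that rose in NK cells, 38 had the same sign and 17 passed the same test in Cd3-positive cells, and of the 10 that fell, 9 and 4 did. Over all genes the test called 61 of 7762 in Cd3-positive cells. The part of RNA from other cells in these changes was not tested further.

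**Figure D4:**
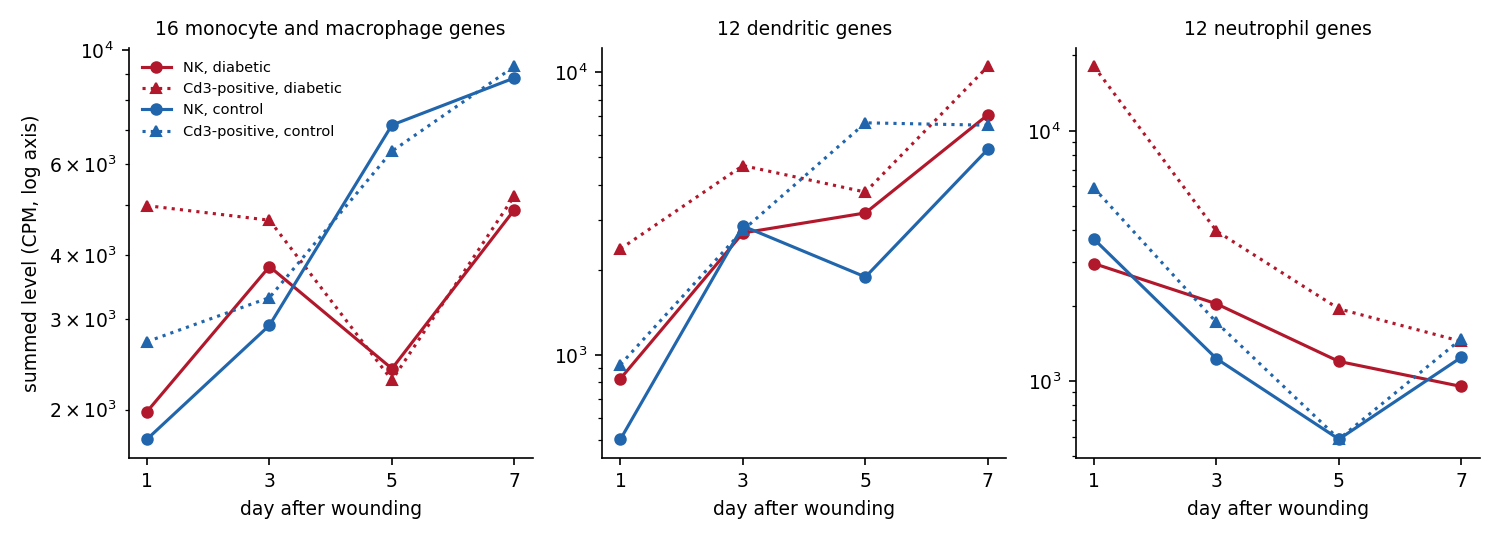
Summed level of 16 monocyte and macrophage genes, 12 dendritic genes and 12 neutrophil genes (CPM, log axis) by day, in NK cells (circles, solid lines) and Cd3-positive cells (triangles, dotted lines) of diabetic (red) and control (blue) libraries. In diabetic wounds the macrophage genes go from 1982 to 4897 CPM in NK cells and from 4987 to 5212 CPM in Cd3-positive cells between days 1 and 7. In control wounds they go from 1751 to 8838 CPM in NK cells and from 2711 to 9308 CPM in Cd3-positive cells, and the neutrophil genes are highest on day 1 in both.

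No gene of the lists of NK function passed the day test. The number of trend calls was unsteady, with 12 without the diabetic library of day 7, 18 without the control library of day 7, 25 without the control library of day 1 and 32 without the diabetic library of day 5. It was 9 with no limit on Csf1r and 4 when cells with 1 UMI of the rule genes were let in. Both of these fits also took in the diabetic library of day 3, which then held 14 and 20 NK cells. Their counts thus do not rest on the cell rule alone.

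Whether the change over days differed between the groups was tested as the interaction of group and day. Of 4423 genes, 0 rose or fell differently (0%) by edgeR at an adjusted p under 0.05, DESeq2 also called 0, and 267 (6.04%) had an unadjusted edgeR p under 0.05. Cell cycle genes had a median interaction of 0.468 per day over 15 tested, against 0.0261 for all genes, and 7 of them had an unadjusted p under 0.05, 6 with a higher and 1 with a lower slope in diabetic wounds. The smallest edgeR adjusted p was 0.230, for Prdm2, a histone methyltransferase gene (-0.74 per day). Il7r, the IL-7 receptor chain, came next (-0.67 per day, edgeR adjusted p = 0.341), and its sign turned to 0.065 without the diabetic library of day 1. The genes with the smallest p among those steeper in diabetic wounds were Lfng (0.606), Tubb5 (0.556), Gnl3 (0.642), Mad2l2 (1.77) and Usp1 (0.585), with edgeR adjusted p-values from 0.738 to 0.762.

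Day 7 was the only day with over 35 NK cells in both groups, so genes were also compared there, with 47 diabetic and 39 control cells. With 1 library each there is no test of the condition. Ratios of CPM carry exact conditional Poisson intervals that cover counting error only. Of 3769 genes with at least 20 UMIs over the pair, 4.35% were at least 2-fold higher and 3.93% at least 2-fold lower in the diabetic library with an interval that left out 1, and the median log2 ratio was 0.0275. With no limit on Csf1r, which raised the cells to 61 and 90, more genes were this far apart, as given in the last section. Added cells can also bring more genes to 20 UMIs. Single genes moved both ways. In diabetic and control libraries Ccl5 then stood at 2707 and 4208 CPM, Cd69 at 213 and 99.3, Ccr7 at 120 and 35.4 and Hspa1b at 339 and 1019. These were closer together than by the rule. Lyz2 was further apart, at 1406 and 4851 CPM, and Nkg7 turned, at 948 and 842 CPM.

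Cell cycle genes were the list that stood highest on day 7. Of 13 compared, 7 were at least 2-fold higher in the diabetic library and none lower, with a median log2 ratio of 0.995. Stmn1, a microtubule regulator, had 67 against 8 UMIs (ratio 5.52, 2.65 to 13.3), and Top2a, the topoisomerase of dividing cells, 59 against 15 (2.59, 1.45 to 4.92). Lig1, the replicative DNA ligase, had 40 against 2 UMIs (13.2, 3.42 to 113). The control cells left out by Csf1r had 313 CPM of Top2a and 239 CPM of Stmn1, against 87.2 and 46.5 CPM in the counted ones.

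**Figure D5:**
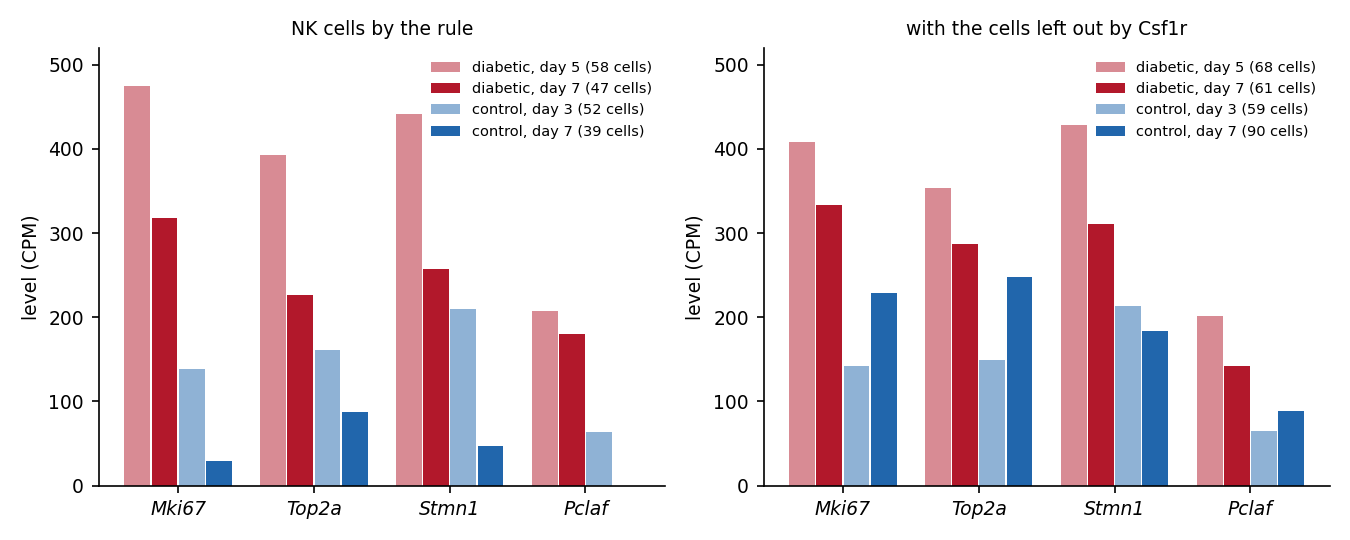
Level (CPM) of 4 cell cycle genes in NK cells of the 4 libraries with over 35 NK cells, by the rule (left) and with the cells left out by Csf1r added (right), with the number of cells in the legend. By the rule Mki67 stood at 318 CPM in the diabetic and 29.1 CPM in the control library of day 7, and with the left-out cells at 333 and 229 CPM.

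Of 13 trafficking genes, 2 were at least 2-fold higher in the diabetic library on day 7 and none lower, with a median log2 ratio of 0.143. Itgal and Itgb2, the subunits of the integrin LFA-1, had ratios of 0.558 and 0.653. Ccr7, the lymph node homing receptor that mature dendritic cells also carry, had 38 against 3 UMIs (ratio 8.35, 2.65 to 42.3). Cd69, an early activation antigen, had 62 against 10 (4.09, 2.08 to 8.95), Itga4, an integrin chain of the trafficking list, 115 against 28 (2.71, 1.78 to 4.25) and Il2ra, the high-affinity IL-2 receptor chain, 31 against 7 (2.92, 1.26 to 7.86). Gzmc had 19 against 2 UMIs (6.27, 1.51 to 55.5), and Tnf had 85 against 28 UMIs (interval of the ratio 1.29 to 3.19). The core granule genes differed less, with ratios of 1.33 for Gzma (1.20 to 1.47), 1.22 for Gzmb (1.02 to 1.47), 0.920 for Nkg7 (0.760 to 1.12) and 0.760 for Prf1 (0.528 to 1.10).

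Lower in the diabetic library on day 7 was Ccl5, with 710 UMIs (2723 CPM) against 1151 (6693 CPM), a ratio of 0.407 (0.370 to 0.447). The ratio was 0.493 for Klra8 (0.369 to 0.658), 0.371 for Itgam (0.196 to 0.681), 0.354 for Il7r (0.201 to 0.608) and 0.420 for Zap70 (0.199 to 0.858). The interferon-stimulated genes Isg15 and Ifit1 had ratios of 0.302 and 0.330, while Ly6a of the same list had 2.64. Hspa1b had 69 against 277 UMIs (0.164, 0.124 to 0.215). Of 13 monocyte and macrophage genes 5 were at least 2-fold lower as well, among them Lyz2 (0.470) and Ms4a7 (0.234). Igkc, an immunoglobulin light chain of B lineage cells, had 1 against 36 UMIs. The other genes with the lowest ratios were Peg10, Ctsk (a cathepsin), Ints6l, Mef2c and Styk1 (both 0.110), Prdm2 (0.178), Arsb and S1pr2 (both 0.183), and those with the highest were Ints7, Elp2, Pcmtd2, Rnmt, Ssna1, Prkcsh and Sptssa, with 1 or 2 UMIs in the control library. Other markers of other cells were higher in the diabetic library. Trbc2 of the T cell list had 80 against 20 UMIs (2.64, 1.60 to 4.55). The class II genes H2-Ab1 and H2-Eb1 had ratios of 1.51 (1.30 to 1.76) and 1.42 (1.16 to 1.74). The median log2 ratio was 0.548 for 6 dendritic genes, Ccr7 among them, and 0.151 for 6 T cell genes. The NK cells of these 2 libraries therefore differed also in RNA that other cells carry, in both directions, and the part of it in the other ratios was not tested.

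Cells in cycle were counted by a UMI of Mki67 or Top2a. They were 1 of 14, 4 of 8, 17 of 58 and 18 of 47 NK cells in diabetic wounds on days 1, 3, 5 and 7, and 2 of 31, 13 of 52, 2 of 5 and 10 of 39 in control wounds. On day 1 few cells of either group carried such a UMI. On day 7 the shares were 38.3% (24.5 to 53.6) in diabetic and 25.6% (13.0 to 42.1) in control wounds, with intervals that overlapped. After thinning to 1000 UMIs they were 21.3% and 10.3%, and those of Cd3-positive cells were 17.0% and 10.0%. Thinned shares on day 5 in diabetic and day 3 in control wounds were 15.8% and 5.77%. For Cd3-positive cells of these libraries the order was the other way, with 12.8% and 19.8%. Neutrophil-like cells, where mature neutrophils no longer divide, had Mki67 in 2.28% and Top2a in 0.383% after thinning.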

How the data were processed

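The deposited tables hold counts, whole UMI numbers for each gene symbol in each barcode, which the authors had not normalized. The authors trimmed reads with fastp (0.20.1 per the processing notes), extracted barcodes using UMI-tools and aligned the reads by STAR. The notes list mm9, while the study's methods name a later Ensembl release, so coordinates here come from the annotation by gene symbol and not from the mapping. The platform is BD Rhapsody in the study's text but 10X Genomics in its series record. The 8 tables held 38959 barcodes and 21755 genes, and 35158 barcodes passed the study's filter of over 200 genes and under 20% mitochondrial UMIs. Mitochondrial genes were then left out.

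The members, the gene lists and the tests were chosen with earlier results of these data known. UMIs were summed over the NK cells of a library. CPM is UMIs per 1000000 summed UMIs. Member depth ran from medians of 2668 to 6626 UMIs per cell. edgeR 4.0.16 (R 4.3.3) used glmQLFit and glmQLFTest with TMM and filterByExpr in libraries with at least 10 NK cells, with Benjamini-Hochberg adjustment at 0.05. DESeq2 1.42.0 was an alternative. Other steps used Python 3.11.15, scipy 1.17.1 and numpy 2.4.6, and Scrublet in scanpy 1.11.5. Wounds of 5 mice were pooled, so a p-value measures only the spread between libraries. Scrublet called fewer than 0.5% of all cells as doublets, 38 of them among the 4653 cells of the control library of day 7 and 1 to 7 in each other library, and was treated as not having worked. Doublets were kept, and 3 NK cells were in the highest 5% of scores of their libraries. Thinning used seed 1.

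Named genes are the rule and marker genes, up to 4 of the highest members of each list of NK genes (1 is not reported here) and members that passed a test, the 10 largest changes in each direction that passed a test (or the 5 smallest p-values where under 5 passed), the 25 and 10 leading genes with at least 50 UMIs, and the 10 largest ratios each way on day 7. A few further list members and cells left out by the rule were chosen after their values were seen. On simulated data for the group comparison (5241 genes) edgeR found 5% of genes changed 2-fold and 49% of those changed 4-fold, with 0 false calls. For the trend (4366 genes) it found 10% and 67.3% with 3 false calls, and for the interaction (4403 genes) 0% and 1%. Alternatives were other UMI minimums, T cell receptor genes at 0, at least 500 genes, no mitochondrial filter, removal of the highest doublet scores, thinning, other scaling, no filter on counts, other day terms, all 8 libraries and each library left out. No limit on Csf1r, and the alternatives for day 7, were added after seeing the data.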

Additional observations from a re-analysis of the deposited data

Results flagged for a closer look

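The difference in the share of NK cells between the groups changed direction between days. Diabetic minus control was -0.41 percentage points on day 1 and -0.94 on day 3, and 1.23 on day 5, each with an interval of counting error that left out 0. With every cell thinned to 1000 UMIs the interval of day 1 held 0 (-0.459 to 0.0313). With 1 library for each group and day, the difference between days was not tested. The control library of day 5, with 5 NK cells, is the one that stood apart in depth and in neutrophil-like cells. The part of these in its NK share was not tested.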

How the results depend on the processing

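The number of cells limits most of these values, since single libraries gave 5 to 58 NK cells, and simulated 2-fold changes were mostly missed. The cause of each change below was not tested. With T cell receptor genes at 0 the share difference was -0.15 points on day 3, 0.208 on day 5 and -0.10 on day 7, where it reversed. With thinning it was -0.42 on day 3 and 0.616 on day 5, and with 1 UMI of the rule genes 1.92 on day 5. With no limit on Csf1r it reversed to -0.26 on day 7, and out of NK plus Cd3-positive cells the mean over the days reversed to -6.90. The share on day 1 kept its direction in all 8 alternatives, from -0.51 to -0.20, but with thinning its interval held 0. The group comparison called 0 genes with DESeq2 (31 at an unadjusted p under 0.05), 0 with no day block (123), 1 with day as a number, 1 with no Csf1r limit (Mki67 -0.44 and Pclaf -0.21, reversed), and 3 to 5 without the diabetic library of day 5 or the control library of day 3, which are alone on their days and carry no group contrast, so this says nothing of stability. With all 8 libraries and with 1 UMI it called 2 genes, of which 0 were among the main 3. The trend called 24 with DESeq2, 19 with all 8 libraries, 4 with 1 UMI (Cd36 reversed to -0.073), 25 with at least 3 UMIs, 9 with no Csf1r limit, 20 with no group term, and 12 to 52 leaving out each library. Fits with 1 UMI and with no Csf1r limit also took in the diabetic library of day 3, with 20 and 14 NK cells. Their values thus reflect 2 choices changed at once. The interaction called 0 to 5 leaving out each library, 5 without the diabetic library of day 7 and 3 without the control library of day 1. Without the diabetic library of day 1, which is also the fit with at least 20 NK cells, Tubb5 (-0.091), Il7r (0.065) and Cd93 (0.18) reversed, and leaving out each library in turn these ranged from -0.091 to 1.10, from -0.98 to 0.065 and from -1.48 to 0.99, where Cd93 reversed without the control library of day 7 too. On day 7 the 312 genes apart by 2-fold became 565 with no Csf1r limit, where 61 diabetic and 90 control cells were counted. Added cells can also bring more genes to the minimum of 20 UMIs, so these counts do not show that single ratios grew. Group fits with at least 20 NK cells or without a library of day 1 or 7, and fits with T cell receptor genes at 0, could not be made. No paired analysis by replicate number was possible because each group and day has 1 library, numbered 1, and pairing by day is already in the day block and in the sign-flip test.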
